A study of Mus musculus with 8 samples.

Results

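Claudins that mark the segments of the nephron were followed across arrays of CD31+ cells sorted from mouse kidney. The genes were Cldn1, Cldn2, Cldn3, Cldn4, Cldn7, Cldn8, Cldn10, Cldn16 and Cldn19, and every probe carrying one of these symbols was taken. They came to 9 genes with 16 probes of the 45281 on the Illumina bead array. Of these, 15 probes, covering all 9 genes, passed the filter on dim probes, as did 23841 probes of 12476 named genes in the whole table. The remaining probe, a second one for Cldn8, was not detected on any array.

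The cells came from adult mice of a mixed C57B6/CD1 background and were enriched with magnetic beads against CD31, the endothelial surface protein encoded by Pecam1. Mutants were homozygous for the KST264 gene-trap allele of Crim1 (Crim1KST264/KST264), which encodes a membrane protein that binds growth factors and which a germline allele affects in every cell type, not in endothelium alone. Wildtype mice carried no such allele, and the labels name no treatment. There were 4 groups of 2 arrays, namely mutant females (numbers 1 and 3), wildtype females (1 and 3), mutant males (2 and 4) and wildtype males (2 and 4). The series text names pairs of mutant and wildtype mice, and the main model did not use this pairing. The labels do not say that each array was a separate animal, so the p-values measure the spread between these arrays, which may be partly technical.

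The arrays were of similar quality, with 45.1% to 48.7% of probes detected and median raw signals of 83.2 to 98.5. The Crim1 probe ILMN_2910295 followed the genotype labels, at 5.30 ± 0.61 (SD, n = 4) on the log2 scale in mutants and 7.63 ± 0.46 in wildtype, a difference of -2.33 (SE 0.17, limma adjusted p = 0.037). The axis of largest variation, with 35.1% of the variance, separated the sexes. On the second axis, with 18.4%, mutant male 2 lay at 53.8 and wildtype male 4 at -39.9, with the other 6 arrays between -14.9 and 3.47. Of the endothelial markers 14 passed the filter on dim probes, Pecam1 and Cdh5 among them on all 8 arrays. So did tubule markers, with Slc34a1, Slc12a1, Umod and Aqp2 detected on all 8 arrays, so RNA of the nephron epithelium was present beside that of the sorted cells. In such bulk samples fewer cells of a type and less RNA per cell cannot be told apart.

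Claudins are multi-pass membrane proteins that join neighbouring epithelial cells at the tight junction, and their extracellular loops set which ions pass between cells. Each stretch of the nephron carries its own set. Cldn1 is a marker of the parietal epithelium lining Bowman's capsule. Cldn2 forms a pore for cations and water in the leaky proximal tubule, and Cldn10 is made in splice forms that favour anions in the proximal tubule and cations in the thick ascending limb. Cldn16 and Cldn19 work together in the thick ascending limb, where magnesium and calcium are taken back between cells, and loss of either causes wasting of these ions in humans. Cldn3 tightens the barrier from the ascending limb onwards, while Cldn4, Cldn7 and Cldn8 belong to the distal tubule and collecting duct, where Cldn8 brings Cldn4 to the junction to make a chloride path in mouse cells.

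The promoters of the 3 claudins whose values differed most between groups are shown first, to give the sequence context of the genes on which the results turn. They are RefSeq windows on the GRCm38.p6 assembly, from 250 bases before to 50 bases after the start of the gene, on the strand of the gene. Capitals mark matches on either strand to CAGGTG (an E-box of the kind bound by Snail factors), to GTTAAT (a half-site for HNF1 factors) and to GGGCGG (a GC box for Sp1). None of these motifs overlaps another in the windows shown.
Cldn1, chr16:26371790-26372089, minus strand: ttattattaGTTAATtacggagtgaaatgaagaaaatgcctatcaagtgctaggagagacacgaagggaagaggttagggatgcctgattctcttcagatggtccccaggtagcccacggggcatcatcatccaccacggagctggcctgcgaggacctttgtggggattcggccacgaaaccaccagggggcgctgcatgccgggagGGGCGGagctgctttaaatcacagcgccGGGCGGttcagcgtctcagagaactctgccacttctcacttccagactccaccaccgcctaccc
Cldn3, chr5:134985964-134986263, plus strand: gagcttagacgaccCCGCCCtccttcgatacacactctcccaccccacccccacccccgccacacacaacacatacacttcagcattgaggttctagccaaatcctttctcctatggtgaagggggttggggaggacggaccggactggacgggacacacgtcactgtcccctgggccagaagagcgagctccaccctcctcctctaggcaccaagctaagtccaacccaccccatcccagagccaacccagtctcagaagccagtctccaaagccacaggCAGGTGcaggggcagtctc
Cldn4, chr5:134946885-134947184, minus strand: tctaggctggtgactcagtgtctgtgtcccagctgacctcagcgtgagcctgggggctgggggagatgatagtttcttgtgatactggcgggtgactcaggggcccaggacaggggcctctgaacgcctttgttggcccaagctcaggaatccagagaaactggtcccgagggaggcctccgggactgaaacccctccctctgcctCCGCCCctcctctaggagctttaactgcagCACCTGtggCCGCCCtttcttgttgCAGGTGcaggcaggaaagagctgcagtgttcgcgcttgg

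The Cldn4 window held 2 matches to CAGGTG and 2 to GGGCGG, the Cldn3 window 1 of each, and the Cldn1 window 1 match to GTTAAT and 2 to GGGCGG. Over the 11 windows that matched 8 of the 9 genes, CAGGTG was found in 3 (Cldn3, Cldn4 and Cldn7), against 20.2% of all 32851 promoter windows. GTTAAT was found in 2 (Cldn1 and Cldn10), against 7.1%, and GGGCGG in 7 windows of 6 genes, against 35.7%. The Cldn19 windows overlap each other, and the same GGGCGG matches were counted in each of them. A match describes the letters of the window and is no evidence of a bound factor. In the RefSeq gene order Cldn3 and Cldn4 are direct neighbours on chromosome 5, and Cldn1 and Cldn16 on chromosome 16. Cldn8 lies on chromosome 16, Cldn10 on 14, Cldn7 on 11, Cldn19 on 4 and Cldn2 on X.

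The main question was whether claudin transcripts differed between Crim1 mutant and wildtype preparations. Cldn3 and Cldn4 were higher on all 4 mutant arrays than on all 4 wildtype arrays, by 1.94-fold and 1.51-fold, and neither difference passed the test over all probes. The claudins of the proximal tubule and of the thick ascending limb, Cldn2, Cldn10, Cldn16 and Cldn19, had smaller or probe-dependent differences. Of the other collecting duct claudins Cldn7 differed by 0.12 on the log2 scale and Cldn8 by -0.21, and the genotypes overlapped for both. With limma and Benjamini-Hochberg adjustment over the 23841 probes, 0 of the 15 claudin probes passed at 0.05, where 9 probes in all (0.0378%) passed. With the replicate number as a block, 0 claudin probes and 0 of all probes passed. In the comparison of the sexes Cldn1 was 2.09-fold lower in males, and it alone of the 9 genes passed. For sex 730 of all probes (3.06%) passed, and the Cldn1 call depended on single arrays, as given below.

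**Figure D1:**
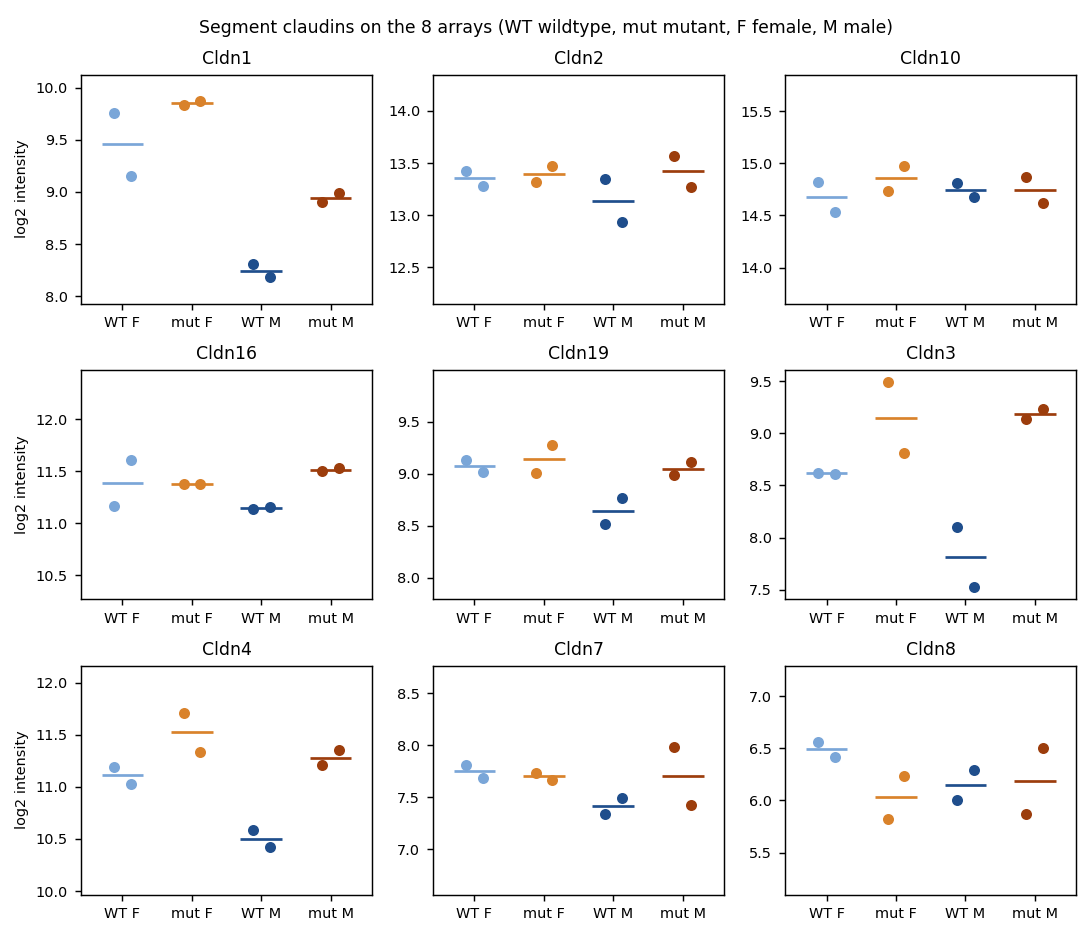
Normalised log2 signal of the representative probe of each claudin on each of the 8 arrays, by group (mutant and wildtype females and males). Points are arrays, lines are group means and each panel has its own axis range, so each group shows 2 points per gene, and Cldn3 and Cldn4 are the panels in which the 4 mutant arrays all lie above the 4 wildtype arrays.

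Values are given on the log2 scale after background correction and quantile normalisation, so a difference of 1 is a 2-fold change. Each probe is compared only with itself across arrays, since brightness also depends on the probe's sequence. Where a gene had several probes, the brightest tested one stands for it and the others are given beside it.

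Cldn1 was the single claudin of the parietal epithelium. It read 9.84 and 9.87 in mutant females, 9.76 and 9.16 in wildtype females, 8.90 and 8.99 in mutant males, and 8.31 and 8.18 in wildtype males. The group means stepped down in that order, and the ranges of the 4 groups did not overlap. Mutants were higher than wildtype within each sex, by 0.40 (SE 0.21) in females and 0.70 (SE 0.21) in males. The female difference was 0.10 without wildtype female 3 and 0.70 without wildtype female 1. Over both sexes the difference was 0.55 (SE 0.15, 1.46-fold), with a limma adjusted p of 0.394. The mutant and wildtype ranges overlapped when the sexes were pooled.

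Of the proximal tubule claudins, the cation and water pore Cldn2 read 13.32 and 13.47 in mutant females and 13.43 and 13.28 in wildtype females. It read 13.57 and 13.27 in mutant males and 13.35 and 12.93 in wildtype males. Mutants and wildtype overlapped in each sex, with wildtype male 4 the lowest array. The genotype difference was 0.16 (SE 0.14, 95% interval -0.17 to 0.49, limma adjusted p = 0.852), and the other Cldn2 probe gave 0.16 (adjusted p = 0.844).

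Cldn10, shared by proximal tubule and thick ascending limb, had 5 tested probes that did not move together. Its brightest probe, designed to the transcript NM_021386, read 14.74 and 14.98 in mutant females, 14.83 and 14.53 in wildtype females, 14.87 and 14.62 in mutant males, and 14.81 and 14.68 in wildtype males. Mutants and wildtype overlapped in both sexes, and the difference was 0.09 (SE 0.13, 95% interval -0.22 to 0.40, limma adjusted p = 0.937).

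A dimmer probe to the same Cldn10 transcript, ILMN_2723576, read 12.45 and 12.39 in mutant females, 12.23 and 12.14 in wildtype females, 12.06 and 12.14 in mutant males, and 11.57 and 11.78 in wildtype males. Mutants lay above wildtype without overlap in each sex, and the difference over both sexes was 0.33 (SE 0.11, 1.26-fold, limma adjusted p = 0.441). The 2 Cldn10 probes to NM_023878 gave -0.16 (SE 0.23) and 0.09 (SE 0.18). ILMN_1257561, to AK085147 and detected on 7 of the 8 arrays, gave 0.43 (SE 0.22). Which splice form each probe reads was not given beyond these accessions, so the disagreement cannot be assigned to a form here.

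In the thick ascending limb, the magnesium and calcium claudin Cldn16 read 11.38 on both mutant female arrays, 11.16 and 11.61 in wildtype females, 11.50 and 11.53 in mutant males, and 11.13 and 11.16 in wildtype males. The females overlapped and the males did not. The genotype difference was -0.01 (SE 0.18) in females and 0.37 (SE 0.18) in males, and 0.18 over both sexes (SE 0.13, limma adjusted p = 0.788).

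Its partner Cldn19 was read by a pair of probes. The brighter, ILMN_3163350, gave 9.01 and 9.27 in mutant females, 9.13 and 9.01 in wildtype females, 8.99 and 9.11 in mutant males, and 8.52 and 8.77 in wildtype males. Again only the males were separated, and the difference over both sexes was 0.24 (SE 0.12, limma adjusted p = 0.676). The dimmer Cldn19 probe, ILMN_2634169, read 8.19 and 8.05, 8.06 and 7.52, 8.08 and 8.32, and 7.23 and 7.29 in the same order of groups. It had the larger difference, 0.64 (SE 0.15, 1.55-fold, limma adjusted p = 0.36), with 0.33 (SE 0.21) in females and 0.94 (SE 0.21, 1.93-fold) in males. The female difference was 0.059 without wildtype female 3 and 0.60 without wildtype female 1.

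Cldn3, a sealing claudin of the ascending limb, distal tubule and collecting duct, had the largest genotype difference of the 9 genes. It read 9.49 and 8.81 in mutant females, 8.62 and 8.61 in wildtype females, 9.14 and 9.24 in mutant males, and 8.11 and 7.53 in wildtype males. Every mutant array was above every wildtype array, and the 2 wildtype males were the lowest. Mutants averaged 9.17 ± 0.28 (SD, n = 4) and wildtype arrays 8.22 ± 0.52. The difference was 0.95 (SE 0.19, 95% interval 0.50 to 1.41), with a limma adjusted p of 0.346. It was 0.54 (SE 0.27) in females and 1.37 (SE 0.27, 2.59-fold, adjusted p = 0.2) in males, and the test of the difference between the sexes did not pass (0.84, SE 0.39, adjusted p = 0.737, unadjusted p = 0.0669). The female difference was 0.20 without mutant female 1 and 0.88 without mutant female 3.

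Cldn4, which with Cldn8 forms the chloride path of the collecting duct, read 11.71 and 11.34 in mutant females, 11.19 and 11.03 in wildtype females, 11.21 and 11.35 in mutant males, and 10.58 and 10.42 in wildtype males. The 4 mutant arrays again lay above the 4 wildtype arrays, though mutant male 2 exceeded wildtype female 1 by only a small margin. The means were 11.40 ± 0.22 (SD, n = 4) in mutants and 10.81 ± 0.36 in wildtype. The difference was 0.59 (SE 0.13, 95% interval 0.29 to 0.90, limma adjusted p = 0.352), with 0.41 (SE 0.18) in females and 0.78 (SE 0.18) in males. The female difference was 0.23 without mutant female 1 and 0.60 without mutant female 3.

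The values of the other collecting duct claudins overlapped between genotypes. Cldn7 read 7.73 and 7.67 in mutant females, 7.81 and 7.69 in wildtype females, 7.99 and 7.43 in mutant males, and 7.34 and 7.49 in wildtype males. Both sexes overlapped, and the difference was 0.12 (SE 0.15, 95% interval -0.22 to 0.47, limma adjusted p = 0.914). Cldn8 read 5.83 and 6.23 in mutant females, 6.56 and 6.42 in wildtype females, 5.87 and 6.50 in mutant males, and 6.00 and 6.29 in wildtype males. It was the one member with a negative difference by its representative probe, at -0.21 (SE 0.18, 95% interval -0.64 to 0.22, limma adjusted p = 0.847). In females the mutant arrays of Cldn8 lay below the wildtype arrays. The probe was dim though detected on all 8 arrays, with raw signals of 101.7 to 158. With the authors' values its difference was -0.05.

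Read over the set, 13 of the 15 claudin probes had a genotype difference above 0, against 52.5% of all tested probes. The claudins were chosen with earlier results of these data known, and several probes read the same gene. The shares in this paragraph are therefore descriptive only. At the gene level 8 of 9 were above 0 with a median of 0.18, against 54.3% and a median of 0.02 over the 12476 genes. Among these 8, Cldn7, Cldn16 and Cldn19 had negative values once the arrays were scaled to markers of their segment. So did Cldn10 against ascending limb markers. The scaling also lowered the median of all probes, and on the ascending limb scale 1 marker, Ptger3, stood apart from the others, as given below. At an unadjusted p under 0.05 the count was 5 of 15 probes, all higher in mutants (Cldn1, Cldn3, Cldn4, Cldn10 and Cldn19), where 8.78% of all probes passed in either direction and 3.74% as higher. Non-overlapping ranges with mutants higher were found for 2 of 15 (Cldn3 and Cldn4), against 1.51% of all probes. Mutants were higher without overlap within each sex for 4 of 15 (Cldn1, Cldn3, Cldn4 and Cldn10), against 3.64%. Within males alone 8 of 15 probes were higher in mutants without overlap, against 21.2% of all probes, and within females 4 of 15 were higher, against 16.1%, and 1 was lower (Cldn8), against 16.7%. By segment the median gene-level difference was 0.13 for the proximal tubule pair, 0.21 for the 4 ascending limb genes and 0.36 for the 4 genes of the distal tubule and collecting duct, with Cldn3 and Cldn10 each counted in 2 segments.

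Within females alone limma passed 0 claudin probes and 0 of all probes (0%), and at an unadjusted p under 0.05 the counts were 0 of 15 and 4.26%. Within males it passed 0 claudin probes and 1 of all probes (0.00419%), which the replicate block took to 0. At the unadjusted threshold 6 of 15 male differences, of 5 genes, were below 0.05, all higher in mutants, against 11.2% of all probes in either direction and 5% as higher. The median gene-level difference was 0.07 in females and 0.37 in males, with 0.00 and 0.03 over all genes. Differences above 0 were found for 11 of 15 probes in females and 14 of 15 in males, against 49.2% and 53.4% of all probes. For the genotype by sex interaction 0 claudin probes and 0 of all probes (0%) passed, and 0 of 15 against 6.97% at the unadjusted threshold. A larger response in males was thus not shown for any claudin.

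**Figure D2:**
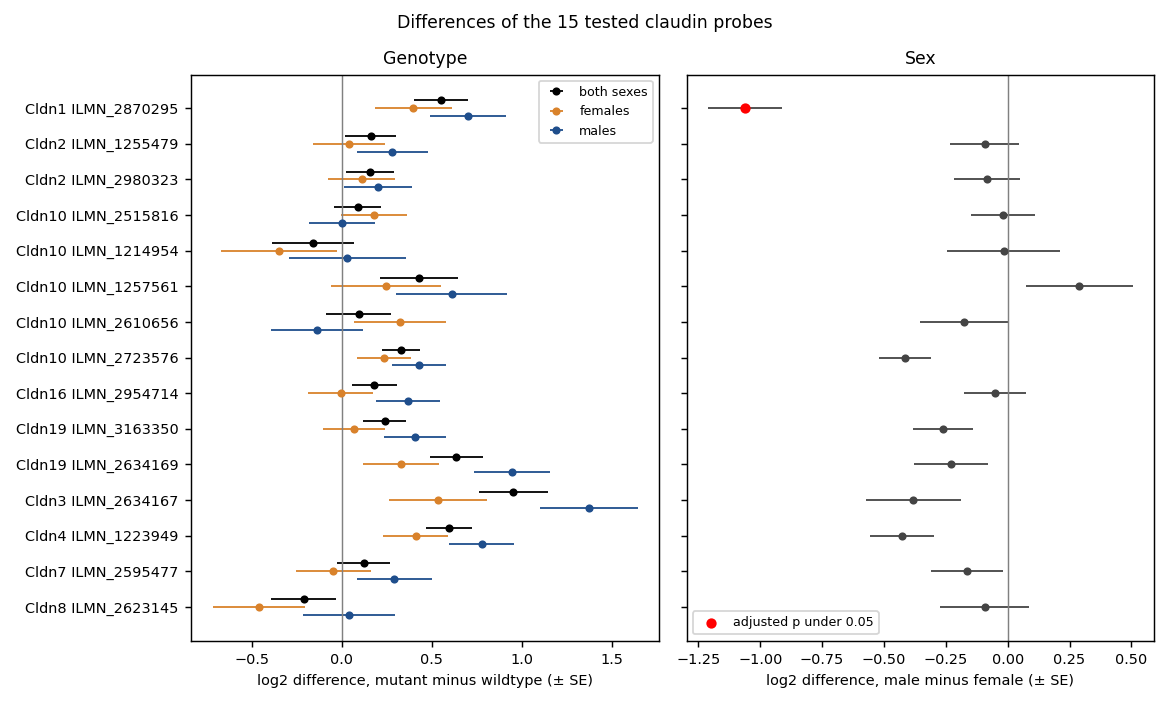
Log2 difference of each of the 15 tested claudin probes with its SE. The left panel gives mutant minus wildtype for both sexes (black), females (orange) and males (blue), and the right panel male minus female, in red where the adjusted p was under 0.05. Cldn3 at 0.95 has the largest genotype difference, and Cldn1 at -1.06 is the single red point.

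The arrays also allow the sexes to be compared over both genotypes. Cldn1 fell in males, averaging 9.66 ± 0.34 (SD, n = 4) in females and 8.59 ± 0.41 in males, and all 4 male arrays lay below all 4 female arrays. The difference was -1.06 (SE 0.15, 95% interval -1.42 to -0.71), or 2.09-fold, with a limma adjusted p of 0.0176. It was the only pass among the 15 claudin probes, where 730 of all probes (3.06%) passed and 416 (1.74%) as lower in males. Lower male ranges without overlap were also found for 1 of 15, against 7.63%. The Cldn1 call was lost when mutant female 1, mutant female 3, wildtype male 2 or wildtype male 4 was left out, with adjusted p-values of 0.0672, 0.0698, 0.0552 and 0.0739 and differences of -1.07, -1.05, -1.09 and -1.03.

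The remaining claudins did not pass for sex. Cldn4 was lower in males by a difference of -0.43 (SE 0.13, limma adjusted p = 0.131), and the dimmer Cldn10 probe ILMN_2723576 by -0.41 (SE 0.11, adjusted p = 0.0934), while the brightest Cldn10 probe gave -0.02. Cldn3 had -0.38 (SE 0.19), Cldn19 -0.26 (SE 0.12), Cldn7 -0.16, Cldn2 and Cldn8 -0.09 each, and Cldn16 -0.05. The sign was thus negative for 14 of 15 probes, with 46.5% of all probes above 0, and the median over the 9 genes was -0.16 against -0.02 over all genes. Scaling to segment markers raised the median sex difference of all probes to 0.15 (proximal tubule), 0.10 (ascending limb) and 0.16 (principal cells). The values of Cldn2, Cldn7, Cldn8, Cldn10 and Cldn16 on those scales, 0.02 to 0.15, carried a positive sign but lay close to or below these medians. The scaling shifts every probe alike, so the change of sign says nothing of these claudins relative to other probes. At an unadjusted p under 0.05 the count was 3 of 15, against 20.1% of all probes.

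Markers of the segments were read beside the claudins on the same arrays. None of the lists had a gene that passed for genotype. The 16 proximal tubule markers had a median difference of 0.02, with Slc34a1, the phosphate transporter, at 0.01 and Lrp2, the megalin receptor, at 0.21. For the 8 tested ascending limb markers it was 0.12, with the sodium chloride transporter Slc12a1 at 0.14 and uromodulin, Umod, at -0.18. For the 8 distal convoluted and connecting tubule markers it was -0.00, with the thiazide-sensitive transporter Slc12a3 at -0.30. Calb1 was not detected on any array.

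All 9 principal cell markers of the collecting duct had differences above 0, with a median of 0.18, among them the water channel Aqp2 at 0.53 (SE 0.21, limma adjusted p = 0.539) and the sodium channel subunit Scnn1b at 0.13. The mean level of this list was 10.89 and 10.63 in mutant females, 10.73 and 10.64 in wildtype females, 10.50 and 10.93 in mutant males, and 10.39 and 10.32 in wildtype males. Wildtype males were thus lowest for the list, as for Cldn3 and Cldn4. The 7 tested intercalated cell markers had a median of 0.23, with the proton pump subunit Atp6v1g3 at 0.41.

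To set the claudins against their segment, each array was also scaled to the mean of the segment's markers, a choice made after the data were seen. Against principal cell markers Cldn3 was 0.74 higher in mutants (SE 0.20, limma adjusted p = 0.15) and still separated the genotypes without overlap, as 0.289% of all probes did with mutants higher. On this scale the median difference of all probes was -0.21. Against the markers of its other segments Cldn3 overlapped. The difference was 0.67 for the ascending limb (lowest mutant array -0.02, highest wildtype array 0.23). It was 1.05 for the distal convoluted and connecting tubule (-0.03 and 0.10). On both scales the highest wildtype array was wildtype female 3. There the ascending limb marker Ptger3 lay at -2.68 from its own mean. The distal convoluted marker Pvalb lay at -1.05 there, within a span of -1.73 to 1.21 over the arrays. Whether Cldn3 overlaps without these markers was not tested. Against principal cell markers Cldn4 came to 0.38 (SE 0.18, adjusted p = 0.424) and overlapped, with mutant male 4 below wildtype female 1. Cldn7 came to -0.09 and Cldn8 to -0.43 (adjusted p = 0.437). For Cldn8 the mutant arrays lay below the wildtype arrays, as for 3.73% of all probes. The gap was narrow, with the highest mutant array at 0.016 and the lowest wildtype array at 0.027. Against intercalated cell markers neither Cldn3 nor Cldn4 overlapped. Cldn3 came to 0.75 (lowest mutant array 0.19, highest wildtype array -0.22) and Cldn4 to 0.39 (0.04 and -0.08). The share of all probes that separate on that scale was not computed. With mutants higher this share was 1.51% without scaling and 0.289% on the principal cell scale. The separation against intercalated cell markers therefore cannot be weighed.

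Against ascending limb markers Cldn16 came to -0.10, Cldn19 to -0.05 and Cldn10 to -0.19, on a scale on which the median of all probes was itself -0.27. Of the 8 tested ascending limb markers Ptger3 had the largest genotype difference, 1.25, against a list median of 0.12. It lay at -2.68 from its own mean on wildtype female 3. Whether the negative signs hold without Ptger3 was not tested. Against proximal tubule markers, where the median of all probes was -0.06, Cldn2 came to 0.09 and Cldn10 to 0.02. The share of the claudin differences that goes with the amount of each segment in the preparation was not tested beyond these values.

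**Figure D3:**
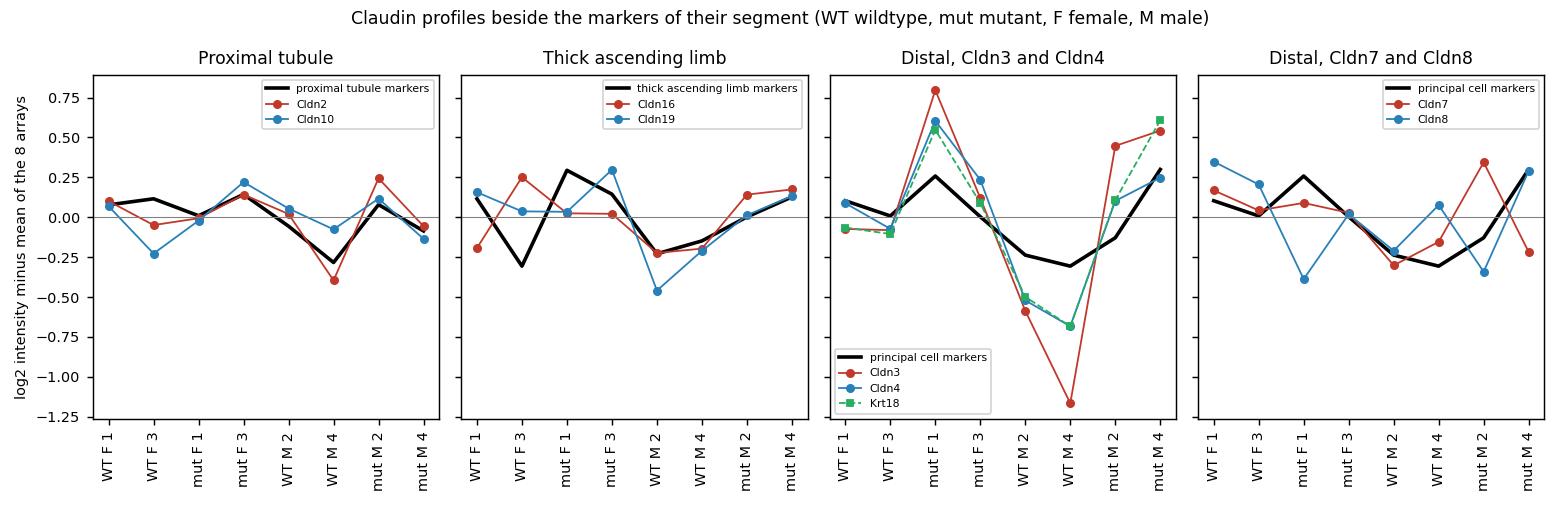
Log2 level on each of the 8 arrays minus the mean over the arrays, for claudins (points), the mean of the markers of their segment (black line) and Krt18 (dashed). Lines only join the values of one gene or list. Cldn3 spans 1.96 from its lowest to its highest array, while the mean of the principal cell markers runs from 10.32 to 10.93.

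Markers of other cell types also differed, without passing. The 14 tested pan-endothelial markers were all below 0 for genotype, with a median of -0.63, and Pecam1 itself was at -0.73 (limma adjusted p = 0.423), Cdh5 at -0.64 and Emcn at -0.57. Their mean level was 10.43 to 11.30 on mutant arrays and 10.85 to 11.99 on wildtype arrays, with the 2 wildtype males highest at 11.68 and 11.99. The 10 tested tubule injury markers were all above 0, with a median of 0.75 and mean levels of 8.27 to 8.86 in mutants and 7.37 to 7.60 in wildtype. Among them Havcr1, which encodes the injury receptor KIM-1, was higher by 2.88 (SE 0.35, adjusted p = 0.167). The part of these lists in the claudin differences was not tested.

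Podocyte markers had a median of 0.55 over 5 tested genes, fibroblast and mural markers 0.44 over 9, and macrophage markers 0.43 over 8. For sex, 4 of the 16 proximal tubule markers passed, where 190 of the 12476 genes passed as higher in males and 275 as lower. Slc5a12, a lactate transporter, fell by 1.11 on the log2 scale in males (adjusted p = 0.0093) and the glucose transporter Slc5a2 fell by 0.77 (adjusted p = 0.0459). The organic anion transporter Slc22a6 rose by 1.23 (adjusted p = 0.00997) and Acsm2, a mitochondrial acyl-CoA synthetase, by 1.50 (adjusted p = 0.00584). Of the 7 tested intercalated cell markers 1 passed, against the same background. It was the anion exchanger Slc4a9, which fell by 0.63 (adjusted p = 0.0384). These limma values stand beside the lower Cldn1 in males, and any part of them in it was not tested.

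The other members of the claudin family on the array did not pass for genotype either, over 8 tested genes with a median of 0.00. Cldn23 had the largest difference, 1.14 (SE 0.28, limma adjusted p = 0.365), from a dim probe detected on 7 of the 8 arrays, which read 6.70 and 5.62 in mutant females, 5.24 and 5.67 in wildtype females, 6.29 and 6.76 in mutant males, and 5.24 and 4.67 in wildtype males. Its genotypes overlapped in females and were apart in males. Cldn6, an embryonic claudin, gave 0.44 (SE 0.18, adjusted p = 0.55). Cldn5, the claudin of endothelial junctions, gave -0.13 (SE 0.12, adjusted p = 0.867), a smaller difference than Pecam1. Cldn11, Cldn12 and Cldn9 lay between -0.06 and 0.03, and the claudin domain gene Cldnd1 gave 0.17.

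Cldn15 stood apart from the segment claudins in its pattern. Its brightest probe read 10.23 and 10.30 in mutant females, 9.68 and 10.13 in wildtype females, 9.82 and 10.88 in mutant males, and 11.46 and 11.93 in wildtype males. Mutants lay above wildtype in females (0.36, SE 0.36) and below in males (-1.35, SE 0.36, limma adjusted p = 0.256). The interaction of -1.71 (SE 0.51) had an adjusted p of 0.656, and the other 2 probes gave -1.75 and -1.58. With those 2 probes the females overlapped, and only the males were separated. Opposite signs without overlap were found for 0 of the 15 segment claudin probes and for 5.88% of all probes. Pecam1, on the same arrays, read 10.30 and 11.27 in mutant males and 11.75 and 12.13 in wildtype males. In females Pecam1 was also lower in mutants, opposite to the brightest Cldn15 probe. From its own mean it lay at -0.46 and -0.39 in mutant females and at -0.15 and -0.10 in wildtype females.

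Transcripts of tight junction scaffold proteins and their partners were measured too. Of 28 scaffold and partner genes 23 were tested and 0 passed for genotype, 12 with differences above 0 and a median of 0.01. Ocln, the junction protein occludin, gave 0.17, the paracingulin gene Cgnl1 0.03, the adhesion molecule F11r -0.43 and the scaffold Tjp1, which encodes ZO-1, -0.53 (SE 0.20, limma adjusted p = 0.501). Both Tjp1 and F11r are also made by endothelium. Marveld2, the tricellulin gene, and Cgn, the cingulin gene, were not detected on any array. Of the 16 listed regulators of tubule claudins 13 were tested and 0 passed, with the calcium-sensing receptor Casr at 0.09, the kinases Wnk1 at -0.22 and Wnk4 at 0.02, and the transcription factor Hnf4a at 0.08.

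Finally, the listed genes whose profile over the 8 arrays was most like that of each claudin were found by the mean absolute difference of array-centred log2 values among 144 genes. The closest gene to both Cldn3 (0.161) and Cldn4 (0.0968) was Krt18, an epithelial keratin that is also 1 of the 10 tested tubule injury markers. It was followed for Cldn3 by Cldn23 (0.190) and Cldn4 (0.208), and for Cldn4 by the calcium channel Trpv5 (0.143) and the carbonic anhydrase Car15 (0.164). Krt18 read 9.30 and 8.84 in mutant females, 8.69 and 8.65 in wildtype females, 8.86 and 9.36 in mutant males, and 8.26 and 8.07 in wildtype males. Its 4 mutant arrays, like those of Cldn3 and Cldn4, all lay above the 4 wildtype arrays, as for 1.51% of all probes. The difference was 0.68 (SE 0.16, limma adjusted p = 0.365). Krt18 was picked for its likeness to these claudins on the same arrays, so its separation is no independent support for theirs.

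For Cldn19 the closest was Slc12a1 of the ascending limb (0.0756), followed by Egf (0.108) and Cgnl1 (0.109), and for Cldn1 they were Slc5a12 (0.263), Pck1 (0.274) and Cubn (0.275), all of the proximal tubule. Cldn2 was nearest to Ocln (0.105), then to Cldn10 (0.108) and Hnf4a (0.113). Cldn10 in turn was nearest to Cldn2 (0.108), then to Cldnd1 (0.112) and Klk1 (0.126). Cldn7 was nearest to Lsr (0.0564), a protein of tricellular junctions, then to the polarity gene Pard3 (0.103) and the sodium/proton exchanger Slc9a3 (0.115). For Cldn16 they were Pard6b (0.107), a polarity protein, Krt8 (0.121) and Pard3 (0.124), and for Cldn8 Egf (0.174), the water channel Aqp1 (0.182) and Slc34a1 (0.186). These distances describe 8 arrays that share sex and genotype groups. Small distances are easiest for genes that vary little, such as Cldn10 with a range of 0.45 and Cldn7 with 0.65. Cldn10 deviated from its own mean by 0.115 on average, so Cldn2 was hardly nearer to it than a flat profile, and Klk1 was farther. Cldn2 deviated from its own mean by 0.127 and Cldn7 by 0.168.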

How the data were processed

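RNA of CD31+ cells was hybridised to 8 Illumina bead arrays. The deposited table holds a raw intensity and a detection p-value per probe and array, which the authors exported without normalisation per the file headers. A second deposited table holds the authors' processed log2 values, whose transformation the sources used here do not state. On each array they correlated with the own raw values at r = 0.977 to 0.986, their medians were 7.46 to 7.47 and their floor was 7.15, and they served as an alternative only.

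Intensities were corrected with neqc in limma 3.58.1 (R 4.3.3; normexp from detection p-values, offset 16, quantile normalisation, log2). A probe entered the tests if 2 or more arrays gave it a detection p below 0.05. A limma model of 4 group means gave all contrasts, with Benjamini-Hochberg adjustment over the 23841 probes at 0.05, 4 residual and 3.05 prior degrees of freedom. The number of arrays limits the precision. Symbols came from the platform annotation, updated by Entrez ID (34885 probes with 1 symbol, 18 with several, 10378 with none). Replicate numbers pair mutant and wildtype arrays, per the series text, and deviations of same-numbered arrays correlated at 0.100 in females and 0.269 in males. In groups of 2 arrays the deviations mirror each other. Each correlation thus rests on a single comparison and cannot show how strong the pairing is. In simulated data for the genotype contrast over 23841 probes, 80% of changes of 1, 98% of 2 and 100% of 3 and 4 on the log2 scale were recovered, with 13 false calls. The simulation used normal noise of the fitted spread and 50 changed probes at each size, where the real contrast called 9 probes. Its shares need not hold for these arrays, and a claudin that did not pass is not shown to be unchanged. Alternatives were other scalings, filters, a replicate block, the authors' values and leaving out each array.

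The claudins and marker lists were chosen with earlier results of these data known. All claudin probes, every other claudin tested, set junction, regulator and marker genes, listed genes that passed and the 3 listed genes most like each claudin were named.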

Additional observations from a re-analysis of the deposited data

Results flagged for a closer look

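Cldn15, which is not among the segment claudins, had opposite genotype differences in the sexes without overlap of the arrays, with an interaction of -1.71 on the log2 scale for its brightest probe (limma adjusted p = 0.656). Mutants were higher in females and lower in males. With the other 2 Cldn15 probes the females overlapped. Groups of 2 arrays are too small for a check of single outlying arrays, so none was made.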

How the results depend on the processing

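No claudin probe passed for genotype under any alternative run. Cldn3 kept a positive genotype difference of 0.64 to 1.12 (adjusted p 0.204 to 0.812) and Cldn4 one of 0.50 to 0.69 (0.226 to 0.836). The genotype count of 9 probes became 0 with the authors' values, 1 with no filter, 3 with no sex term, 0 with the replicate block, and 0 to 1 with one array left out. The count of 1 in males became 0 with the authors' values, 0 with the replicate block and 0 to 5 with one array left out, at 5 without mutant male 2 and 3 without wildtype male 4. The block changed no claudin call. The sex count of 730 became 1120 with the authors' values and 225 to 741 with one array left out, at 225 to 304 without any single female or wildtype male array. The claudin count for sex, 1, became 2 with no background correction, the authors' values or a variance trend (Cldn1 and the Cldn10 probe ILMN_2723576), and 0 to 1 with one array left out.

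Signs turned for Cldn10 with other probes (genotype -0.16 with ILMN_1214954, sex 0.29 with ILMN_1257561). Scaling to segment markers, added after the data were seen, shifted all probes alike, with medians of -0.27 (ascending limb) and -0.21 (principal cells) for genotype and 0.10 to 0.16 for sex. On these scales genotype signs turned for Cldn16 (-0.10), Cldn19 (-0.046), Cldn7 (-0.094) and, against ascending limb markers, Cldn10 (-0.19). The ascending limb values were not tested without the marker Ptger3, which lay at -2.68 from its own mean on wildtype female 3. Sex signs turned for Cldn2 (0.079), Cldn10 (0.15), Cldn16 (0.072), Cldn7 (0.022) and Cldn8 (0.094), values close to or below the medians of all probes. With one array left out, ranges crossed 0 for Cldn7 by genotype (-0.018 to 0.26) and, by sex, for Cldn2 (-0.20 to 0.0096), Cldn8 (-0.25 to 0.066), Cldn10 (-0.097 to 0.054) and Cldn16 (-0.16 to 0.059). Apart from this shift the cause was not tested, and none of these differences passed. Within females, where each group has 2 arrays, leaving out one moved the genotype difference of Cldn8 from -0.26 (without mutant female 1) to -0.66 (without mutant female 3).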
